A study of Mus musculus with 10 samples.

Results

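The Cyp4a genes encode the cytochrome P450 enzymes that hydroxylate the terminal, or omega, carbon of medium and long-chain fatty acids. The 6 protein-coding genes Cyp4a10, Cyp4a14, Cyp4a31, Cyp4a32, Cyp4a12a and Cyp4a12b were taken by gene name from a deposited table of 55401 genes. Each of the 6 was found there once. Liver RNA had been sequenced from 5 NIKhKO and 5 NIKflox mice. NIK is NF-kB inducing kinase, encoded by Map3k14, NIKflox is the floxed genotype, and the study's title concerns NIK of the liver. Ethanol at 5% in a Lieber-DeCarli liquid diet was fed for 4 weeks to all 10 mice, so no library shows the liver without ethanol. The labels give neither the driver of the deletion nor the sex or age of the mice, and they name no litters or cages, so that a p-value here covers only how far these livers varied.

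Omega-hydroxylation starts a side route of fatty acid breakdown. The hydroxylated fatty acid is oxidized by alcohol and aldehyde dehydrogenases to a dicarboxylic acid, which is shortened in peroxisomes. In rodent liver Cyp4a10 and Cyp4a14 are classic targets of PPARalpha, the nuclear receptor that fatty acids and fibrate drugs activate, and Cyp4a14 and Cyp4a10 are known to rise in fasting and in fatty liver. Cyp4a12a and Cyp4a12b are known as androgen-dependent genes of male mice, and Cyp4a12a makes 20-HETE from arachidonic acid. Cyp4a31 and Cyp4a32 are close relatives of Cyp4a10, and less is known of them.

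The 6 genes lie in a cluster on chromosome 4 (GRCm38), over 322557 bases. From left to right they are Cyp4a12a at chr4:115299046-115332815, Cyp4a12b at chr4:115411624-115439034, Cyp4a14 at chr4:115486200-115496142, Cyp4a10 at chr4:115518264-115533649, Cyp4a31 at chr4:115563649-115579015 and Cyp4a32 at chr4:115600969-115621602. Cyp4a14 alone of the 6 is on the minus strand. In the GENCODE M21 annotation the longest coding transcript has 13 exons in Cyp4a10 and 12 in the others, and a coding length of 1521 bases in Cyp4a14, 1524 in both Cyp4a12 genes and 1527 in Cyp4a10, Cyp4a31 and Cyp4a32. The Cyp4a32 transcript of 1530 bases holds no untranslated sequence, whereas that of Cyp4a10 has 58 bases before and 521 after the coding part.

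**Figure D1:**
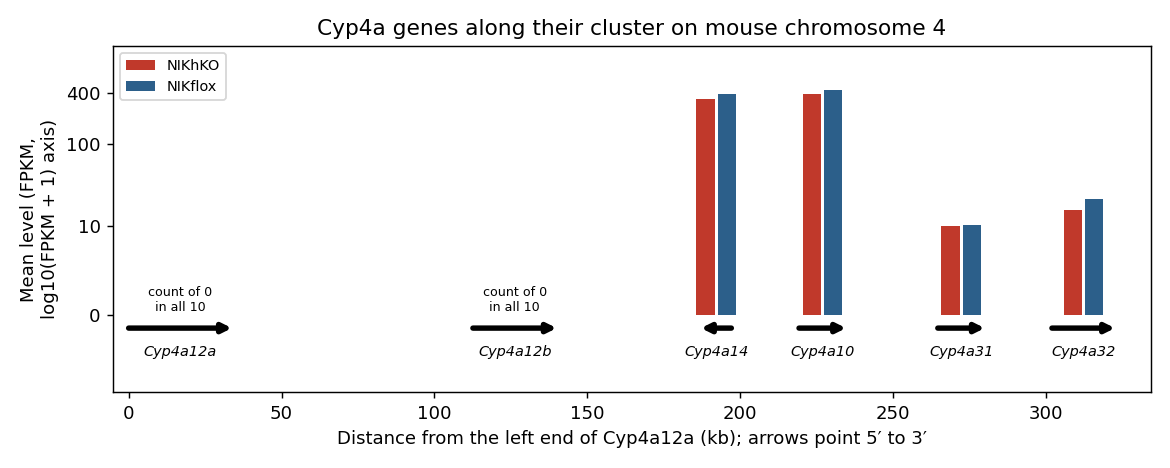
Mean level (FPKM on a log10(FPKM + 1) axis, n = 5 each) of the 6 Cyp4a genes in NIKhKO (red) and NIKflox (blue) livers, drawn at the gene's place in the cluster, in kb from the left end of Cyp4a12a; arrows point from 5′ to 3′. Both Cyp4a12 genes had a count of 0 in all 10 libraries, Cyp4a14 and Cyp4a10 stood at 333 to 432 FPKM and Cyp4a31 and Cyp4a32 at 10.2 to 21.6 FPKM.

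The sequence around the codon of the cysteine that holds the haem iron shows how alike the genes are. The lines give 63 coding bases of each gene, 5′ to 3′, from the GENCODE M21 transcripts (chromosome 4), with capitals where a gene differs from Cyp4a10. They start at coding base 1336 in Cyp4a10, Cyp4a31 and Cyp4a32, at 1333 in the Cyp4a12 genes and at 1330 in Cyp4a14.
Cyp4a10: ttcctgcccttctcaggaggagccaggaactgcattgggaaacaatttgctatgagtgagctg
Cyp4a31: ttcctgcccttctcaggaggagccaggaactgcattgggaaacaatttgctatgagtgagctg
Cyp4a32: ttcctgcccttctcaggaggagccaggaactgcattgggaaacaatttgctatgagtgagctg
Cyp4a14: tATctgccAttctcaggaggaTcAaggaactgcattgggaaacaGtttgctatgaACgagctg
Cyp4a12a: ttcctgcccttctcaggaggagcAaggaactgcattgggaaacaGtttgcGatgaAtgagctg
Cyp4a12b: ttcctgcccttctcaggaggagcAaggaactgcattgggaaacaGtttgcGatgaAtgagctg

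Cyp4a31 and Cyp4a32 matched Cyp4a10 at every base of this stretch, and the Cyp4a12 genes matched each other, while Cyp4a14 differed from Cyp4a10 at 8 bases. Over the whole coding sequence Cyp4a10 was 96.6% identical to Cyp4a31 and 97.2% identical to Cyp4a32, and Cyp4a31 and Cyp4a32 were 96.0% identical. Cyp4a14 was 75.4 to 76.1% identical to any of the other members. Cyp4a12a and Cyp4a12b were 98.5% identical. The coding stretch with the most differences summed over the 3 pairs of Cyp4a10, Cyp4a31 and Cyp4a32 is shown next, from coding base 200 to 259, with capitals again where a gene differs from Cyp4a10.
Cyp4a10: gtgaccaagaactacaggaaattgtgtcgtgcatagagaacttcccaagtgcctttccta
Cyp4a31: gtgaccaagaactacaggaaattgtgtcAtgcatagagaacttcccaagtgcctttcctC
Cyp4a32: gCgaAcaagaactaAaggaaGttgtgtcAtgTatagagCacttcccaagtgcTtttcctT

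In this stretch Cyp4a32 differed from Cyp4a10 at 9 of 60 bases and from Cyp4a31 at 8. Cyp4a31 differed from Cyp4a10 at 2, so the stretch sets Cyp4a32 apart from both. Of all windows of 100 bases in the annotated transcripts, 20.1% of those of Cyp4a32, 12.7% of those of Cyp4a10 and 8.22% of those of Cyp4a31 occurred letter for letter in another gene, in each case within these 3. None of the 2397 windows of Cyp4a14 did. For Cyp4a12a the share was 35.8% and for Cyp4a12b 36.2%, each time in the other of the pair. How the authors treated reads that match several genes was not stated. The split of reads between Cyp4a10, Cyp4a31 and Cyp4a32 is therefore uncertain, and that of Cyp4a14 is not touched by identical stretches of this length.

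Depth and the state of the libraries bear on all values that follow. Total estimated counts ran from 53225028 to 64321202 in NIKhKO and from 47161869 to 65052525 in NIKflox. Map3k14, the targeted gene, read 0.347, 0.361, 0.443, 0.389 and 0.373 FPKM (sequenced fragments per length of transcript, scaled by library size) in NIKhKO 1 to 5, against 0.553, 0.510, 0.585, 0.899 and 0.483 FPKM in NIKflox 1 to 5. The ranges did not overlap, as was the case with NIKhKO lower for 1.59% of all genes tested. The log2 fold change, NIKhKO over NIKflox, was −0.59 (SE 0.19, adjusted p = 0.33 in edgeR's quasi-likelihood test). Without NIKflox 4 it was −0.42 (edgeR adjusted p = 0.50). Hepatocyte markers (9 of 10 found) summed to 57250 to 72350 FPKM in NIKhKO and 57210 to 68480 FPKM in NIKflox. The 10 heart muscle markers summed to 0.117 to 0.958 FPKM in NIKhKO and to 33.2 FPKM in NIKflox 4, 7.13 FPKM in NIKflox 2 and 0.122 to 0.712 FPKM in the other NIKflox libraries. Of 10 markers of kidney tubules, another site of Cyp4a expression, 8 had a count of 0 in every library, Kap, Umod and Slc34a1 among them, and the list summed to at most 0.0116 FPKM in NIKhKO and 0.0151 FPKM in NIKflox. Of the markers of other liver cells, edgeR and limma called 0 in either direction. DESeq2 called 2 B cell markers higher and 1 cholangiocyte marker lower, beside 0.990% and 0.636% of all genes. B cell markers summed to 6.65 to 16.1 FPKM in NIKhKO and 3.89 to 7.09 FPKM in NIKflox, and 6 of the 6 tested were higher at an unadjusted p below 0.05 (4.85% of all genes). Cholangiocyte markers summed to 21.3 to 35.1 FPKM in NIKhKO and 33.5 to 54.9 FPKM in NIKflox, with 3 of 6 lower at that p (5.14% of all genes), and stellate cell markers to 38.5 to 54.1 FPKM in NIKhKO and 46.97 to 94.96 FPKM in NIKflox, with 1 of 9 lower. Of 8 Kupffer cell and macrophage markers and 8 sinusoidal endothelial markers 0 had an unadjusted p below 0.05. The summed ranges overlapped for B cell, cholangiocyte and stellate cell markers. Of the single markers, 2 of 6 for cholangiocytes had separate ranges with NIKhKO lower, beside 1.59% of all genes. For B cells 1 of 6 had separate ranges with NIKhKO higher, beside 0.605% of all genes. The part of these cells in the Cyp4a values was not tested.

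Cyp4a10, the member with the highest mean FPKM, read 352, 314, 475, 409 and 369 FPKM in NIKhKO 1 to 5, against 431, 457, 393, 606 and 274 FPKM in NIKflox 1 to 5. All 5 NIKhKO values lay inside the NIKflox range. The means were 384 ± 61.5 FPKM in NIKhKO and 432 ± 120 FPKM in NIKflox (SD, n = 5 each). The log2 fold change was −0.10 (SE 0.19, edgeR adjusted p = 0.92), with a 95% interval from −0.51 to 0.32, or 0.702-fold to 1.25-fold.

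Cyp4a14, a strongly inducible PPARalpha target in mice, read 344, 262, 455, 408 and 196 FPKM in NIKhKO 1 to 5, against 273, 458, 295, 710.1 and 216 FPKM in NIKflox 1 to 5. The highest value of all was that of NIKflox 4 and the lowest that of NIKhKO 5, and the groups overlapped. The means were 333 ± 106 FPKM in NIKhKO and 390.4 ± 200.2 FPKM in NIKflox (SD, n = 5 each). The log2 fold change was −0.14 (SE 0.32, edgeR adjusted p = 0.93), with a 95% interval from −0.84 to 0.56, or 0.557-fold to 1.47-fold.

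Cyp4a32 read 14.7, 16.1, 16.4, 18.6 and 14.9 FPKM in NIKhKO 1 to 5, against 20.6, 30.5, 15.4, 30.03 and 11.7 FPKM in NIKflox 1 to 5. The NIKhKO livers lay close together, in the lower part of the NIKflox range, with NIKflox 3 among them and NIKflox 5 below them. The means were 16.1 ± 1.56 FPKM in NIKhKO and 21.6 ± 8.49 FPKM in NIKflox (SD, n = 5 each). Its log2 fold change, −0.35, was the farthest from 0 of the 4 (SE 0.24, edgeR unadjusted p = 0.16, adjusted p = 0.68), with a 95% interval from −0.87 to 0.16. Its GENCODE M21 coding transcript holds only coding bases, and the transcript models behind the deposited values were not used here.

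Cyp4a31 read 9.31, 6.60, 12.8, 13.8 and 8.46 FPKM in NIKhKO 1 to 5, against 11.6, 16.7, 6.61, 11.5 and 5.50 FPKM in NIKflox 1 to 5. NIKflox 2 was highest and NIKflox 5 lowest. The means were 10.2 ± 3.02 FPKM in NIKhKO and 10.4 ± 4.5 FPKM in NIKflox (SD, n = 5 each). The log2 fold change was 0.04 (SE 0.31, edgeR adjusted p = 0.98), with a 95% interval from −0.64 to 0.73.

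**Figure D2:**
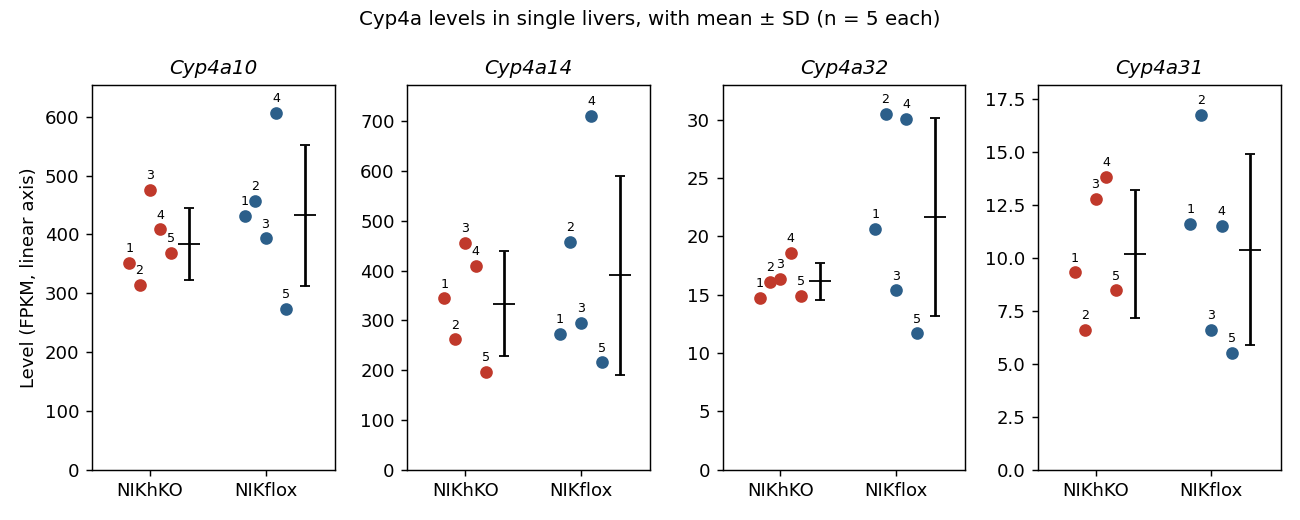
Level (FPKM, linear axis from 0) of the 4 detected Cyp4a genes in each NIKhKO (red) and NIKflox (blue) library, numbered as in the labels, with black bars for mean ± SD (n = 5 each). The groups overlap for all 4 genes, and for Cyp4a14 NIKflox 4, at 710.1 FPKM, stands above every other library.

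Cyp4a12a and Cyp4a12b had a count of 0 in each of the 5 NIKhKO and each of the 5 NIKflox libraries. A count of 0 allows up to 3 counts, which is 0.0461 to 0.0636 CPM in these libraries and covers counting error only. Neither gene passed the filter of a mean of 0.5 FPKM, so neither was tested. The sex of the mice is not in the labels. Xist, which is transcribed from the inactive X chromosome, read 17.0 to 20.8 FPKM in NIKhKO and 14.4 to 20.7 FPKM in NIKflox, and the Y-linked genes Ddx3y, Uty, Kdm5d and Eif2s3y, looked up after the data were seen, read at most 0.0156 FPKM in any library. By these RNAs all 10 livers read as female. The part of sex in the Cyp4a12 counts of 0 was not tested. The other 5 Cyp4a entries of the table, which include Cyp4a29, Cyp4a30b and pseudogenes, also had a count of 0 throughout.

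Of the 4 members that passed the filter, 0 passed edgeR's test at an adjusted p below 0.05, and 0 had an unadjusted p below 0.05. DESeq2, which called 0.990% of all genes higher and 0.636% lower, and limma, which called 0 genes in all, called 0 of them as well. Over all 12731 genes tested, edgeR called 0.0236% (0.0157% higher and 0.00785% lower in NIKhKO), and at an unadjusted p below 0.05 4.85% were higher and 5.14% lower. The ranges of the 2 groups overlapped for all 4 members, and did not overlap for 2.20% of all genes tested. The median log2 fold change of the 4 was −0.12, with 1 positive and 3 negative, beside a median of −0.01 over all genes tested, of which 48.2% were positive. The intervals leave room for differences of the sizes given, so a missing call does not show that the genotypes were alike. In bulk liver, fewer cells that express a gene and less RNA per cell cannot be told apart.

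For Cyp4a10, Cyp4a14 and Cyp4a31 the sign of the fold change turned when some single libraries were left out, while that of Cyp4a32 stayed negative, at −0.50 to −0.19. Without NIKflox 4 the log2 fold change was 0.04 for Cyp4a10 and 0.16 for Cyp4a14, with the sign turned. Without both NIKflox 2 and NIKflox 4, the libraries with the most heart muscle marker RNA, it was 0.12 for Cyp4a10, 0.41 for Cyp4a14, 0.42 for Cyp4a31 and 0.07 for Cyp4a32, and 0 of the 4 was called (lowest edgeR adjusted p 0.75). NIKflox 2 and NIKflox 4 ranked 3 and 1 of the 10 libraries for Cyp4a10 and 2 and 1 for Cyp4a14. For Cyp4a32 they ranked 1 and 2, and for Cyp4a31 1 and 5. Leaving out high NIKflox values raises the fold change whatever the heart muscle RNA in them. Whether heart tissue in those samples plays a part in their Cyp4a level was not tested. The summed adipose tissue markers, of which Pck1 and Cidec are also liver genes, were highest in NIKflox 4 too, at 809.5 FPKM, against 243 to 527 FPKM in the other NIKflox libraries and 252 to 481 FPKM in NIKhKO.

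**Figure D3:**
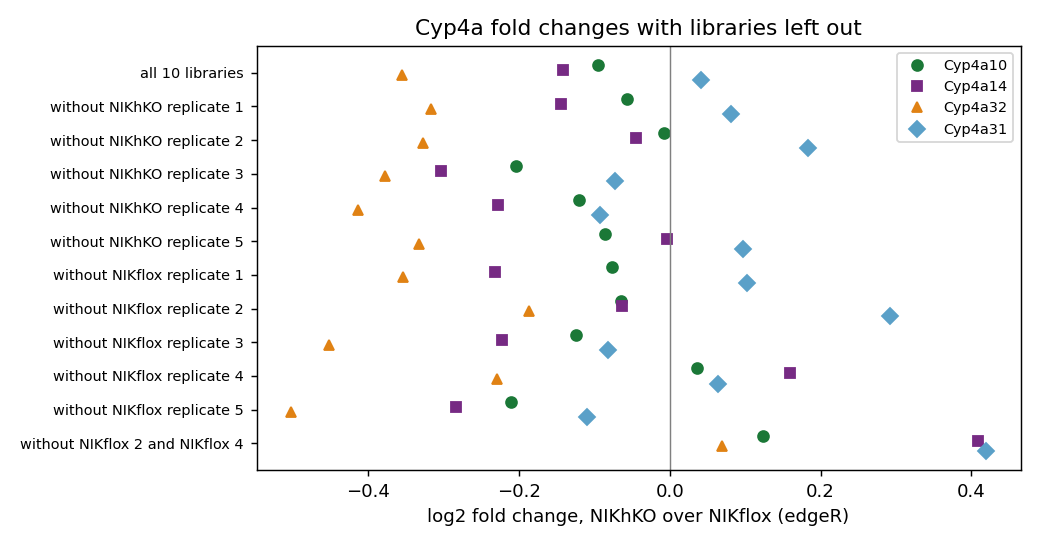
Log2 fold change (NIKhKO over NIKflox, edgeR) of the 4 detected Cyp4a genes with all 10 libraries and with the named libraries left out. Cyp4a14 moves from −0.30 without NIKhKO 3 to 0.16 without NIKflox 4, and all 4 genes lie above 0 without NIKflox 2 and NIKflox 4. Both of these libraries ranked 1 to 3 of the 10 for Cyp4a10, Cyp4a14 and Cyp4a32.

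The levels per length fell into a high pair, Cyp4a10 and Cyp4a14, and a low pair, Cyp4a32 and Cyp4a31. Cyp4a10 averaged 408 FPKM over the 10 libraries, Cyp4a14 362 FPKM, Cyp4a32 18.9 FPKM and Cyp4a31 10.3 FPKM. Cyp4a10 ranked 119 and Cyp4a14 ranked 139 among the 12731 genes tested, so that both stood near the top of the liver transcriptome. Cyp4a10 exceeded Cyp4a14 in 5 of 5 NIKhKO and 3 of 5 NIKflox libraries, on average 1.19-fold. An exact two-sided sign-flip permutation test of the log2 ratios within libraries gave p = 0.037 (adjusted over the 3 neighbouring pairs, p = 0.037). In NIKflox 2 and NIKflox 4 the order was reversed, if by little in NIKflox 2, where the ratio of Cyp4a14 to Cyp4a10 was 1.002 (1.17 in NIKflox 4). Cyp4a14 exceeded Cyp4a32 in all 10 libraries, 13.2-fold to 27.8-fold, and Cyp4a32 exceeded Cyp4a31 in all 10, 1.28-fold to 2.61-fold. Each of these 2 comparisons gave an exact permutation p of 0.0020 (adjusted p = 0.0029), the smallest that 10 libraries allow. By counts, Cyp4a14 was above Cyp4a10 in NIKhKO 1 to 4, NIKflox 2 and NIKflox 4. It was below Cyp4a10 in NIKhKO 5, NIKflox 1, NIKflox 3 and NIKflox 5. Counts of Cyp4a31 were above those of Cyp4a32 in NIKhKO 1, NIKhKO 3 and NIKhKO 4, and below them in the other libraries. The GENCODE M21 coding transcript has 2509 bases in Cyp4a31 and 1530 in Cyp4a32. The steps from Cyp4a10 to Cyp4a14 and from Cyp4a32 to Cyp4a31 depend on the transcript lengths behind FPKM and on how shared reads were split. The permutation tests take both as given, so their p-values do not cover an error in either.

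The make-up of the family is given as shares, whose difference between genotypes was not tested. Cyp4a10 took 52.3 ± 6.02% of the summed FPKM of the family in NIKhKO and 52.0 ± 5.77% in NIKflox (SD, n = 5 each). Cyp4a14 took 44.1 ± 6.25% in NIKhKO and 44.2 ± 5.87% in NIKflox. Cyp4a32 took 2.23 ± 0.391% in NIKhKO and 2.53 ± 0.437% in NIKflox, and Cyp4a31 1.36 ± 0.192% in NIKhKO and 1.24 ± 0.399% in NIKflox. The ratio of Cyp4a32 to Cyp4a31 was 1.68 ± 0.464 in NIKhKO and 2.13 ± 0.35 in NIKflox. The lowest share of Cyp4a14 was 33.3%, in NIKhKO 5, and the highest 52.3%, in NIKflox 4. All 4 genes together summed to 589 to 959.8 FPKM in NIKhKO and to 507 to 1358 FPKM in NIKflox, or 0.146 to 0.243% of all counts in NIKhKO and 0.128 to 0.355% in NIKflox. The sum of Cyp4a10, Cyp4a31 and Cyp4a32, which depends less on how reads are split between these 3, was 410.1 ± 64.7 FPKM in NIKhKO and 464 ± 130.1 FPKM in NIKflox (SD, n = 5 each).

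Differences between single livers were wide, above all in NIKflox. For Cyp4a14 the highest NIKhKO liver had 2.32 times the level of the lowest, and the highest NIKflox liver 3.29 times the level of the lowest. The SD of log2(FPKM + 1) of Cyp4a14 was 0.49 in NIKhKO and 0.68 in NIKflox, above 92.8% and 96.7% of all genes tested. Among the 3017 genes with a mean of at least 10 FPKM it lay above 91.2% in NIKhKO and 95.5% in NIKflox. For Cyp4a10 the SD was 0.23 in NIKhKO and 0.41 in NIKflox, above 65.4% and 87.9% of the genes tested. Cyp4a32 had the narrowest spread of the 4 in NIKhKO, with an SD of 0.13, above 29.4% of genes, and an SD of 0.57 in NIKflox, above 94.6%. Whether the spread differed between genotypes was not tested.

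The 4 genes went up and down together from liver to liver. Cyp4a10 and Cyp4a14 were both highest in NIKflox 4, while Cyp4a31 and Cyp4a32 were both highest in NIKflox 2. Cyp4a10, Cyp4a31 and Cyp4a32 were lowest in NIKflox 5, and Cyp4a14 was lowest in NIKhKO 5. Between Cyp4a10 and Cyp4a14, Pearson's r of log2(FPKM + 1) was 0.84 (permutation p = 0.0027, adjusted over 6 pairs p = 0.010) and Spearman's rho 0.81 (permutation p = 0.0068, adjusted p = 0.019), over 10 libraries. With the genotype means taken out r was 0.83. Over the 6 pairs r ran from 0.68, for Cyp4a14 and Cyp4a31 (permutation p = 0.031, adjusted p = 0.031), to 0.84, and rho from 0.71 to 0.83, with adjusted permutation p-values of 0.010 to 0.031 for r and 0.019 to 0.027 for rho.

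The correlations were computed again without the most extreme livers. Without the 2 libraries farthest from the median of the gene on the x axis, r was 0.63 for Cyp4a10 and Cyp4a14 (NIKflox 4 and NIKflox 5 left out, exact permutation p = 0.096, n = 8), 0.57 for Cyp4a10 and Cyp4a32 (exact permutation p = 0.14), 0.62 for Cyp4a14 and Cyp4a32 (exact permutation p = 0.095) and 0.48 for Cyp4a31 and Cyp4a32 (exact permutation p = 0.22). For those 4 pairs r stayed positive but no longer passed at 0.05 with 8 libraries. It was 0.78 for Cyp4a10 and Cyp4a31 (exact permutation p = 0.024) and 0.86 for Cyp4a14 and Cyp4a31 (exact permutation p = 0.011). Cyp4a14, the member with no 100-base window in common with the others, had an r of 0.65 with Cyp4a10, 0.71 with Cyp4a31 and 0.44 with Cyp4a32 without NIKflox 2 and NIKflox 4. The other pairs had 0.82 (Cyp4a10 and Cyp4a31), 0.74 (Cyp4a10 and Cyp4a32) and 0.75 (Cyp4a31 and Cyp4a32) without them. Pairs among Cyp4a10, Cyp4a31 and Cyp4a32 share reads, which can move their counts together or apart.

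**Figure D4:**
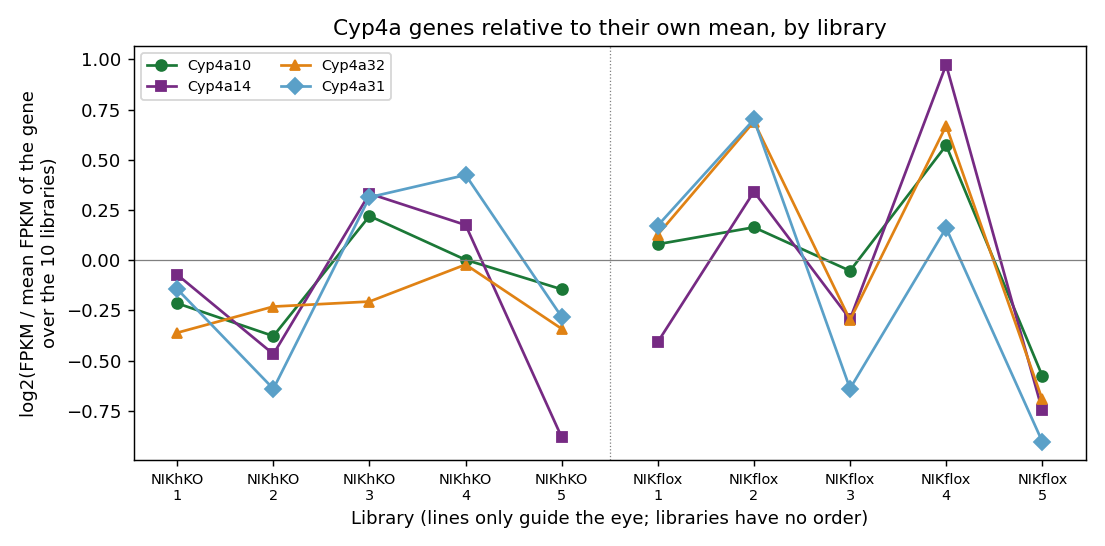
Level of each detected Cyp4a gene relative to its own mean over the 10 libraries (log2 ratio of FPKM), by library, with NIKhKO left of the dotted line and NIKflox right of it; lines only guide the eye. All 4 genes are below their mean in NIKflox 5, and NIKflox 4 is above the mean for all 4.

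The genes whose pattern over the 10 libraries was most like that of Cyp4a14, by Pearson's r of log2(FPKM + 1) among 10562 other genes tested with a mean of at least 1 FPKM, were Plekhf1, Gfm1, Sec24d, Dnm2 and Rgl1. Plekhf1, an endosomal adaptor, had an r of 0.92 and read 0.683 to 1.87 FPKM in NIKhKO and 0.922 to 1.903 FPKM in NIKflox. Gfm1, a mitochondrial translation elongation factor, and Sec24d, a coat protein of vesicles that leave the endoplasmic reticulum, had an r of 0.91. Dnm2, dynamin 2, also had 0.91 and Rgl1 0.90. Without NIKflox 4 the r was 0.92, 0.84, 0.84, 0.83 and 0.92 in the same order. They were picked as the closest of 10562 over the same libraries, so these values describe likeness only, and 0 of the 5 was among the PPARalpha targets listed for this comparison. For Cyp4a12a no likeness could be computed, since it had no counts.

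The RNA of PPARalpha, the receptor that drives Cyp4a10 and Cyp4a14 in rodents, differed by less than its spread. Ppara read 5.68 ± 1.13 FPKM in NIKhKO and 5.97 ± 1.36 FPKM in NIKflox (SD, n = 5 each), with a log2 fold change of −0.00 (SE 0.18, edgeR adjusted p = 1.0) and a 95% interval from −0.40 to 0.40. Its partner Rxra read 53.0 ± 7.42 FPKM in NIKhKO and 52.9 ± 9.65 FPKM in NIKflox. Of 18 genes for PPARalpha and its partners, all tested, 0 passed in edgeR over all genes. At an unadjusted p below 0.05 in edgeR 3 were higher and 1 lower, or 16.7% and 5.56%, beside 4.85% and 5.14% of all genes. DESeq2 and limma called 0 of the 18. Those with the smallest p were Nr1h4, the bile acid receptor FXR (log2 fold change 0.28, adjusted p = 0.29), Ppard (−1.06, adjusted p = 0.34) and Pparg (0.55, adjusted p = 0.38).

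Other target genes of PPARalpha were listed from general knowledge, 50 genes of which 48 were tested. In edgeR 0 passed over all genes, with 3 higher and 4 lower at an unadjusted p below 0.05, or 6.25% and 8.33%, beside 4.85% and 5.14% of all genes. limma called 0 of them, and DESeq2 called 3 lower, Acot1, Crat and Fgf21, beside 0.636% of all genes. Their median log2 fold change was −0.02, with 21 positive and 27 negative.

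None of the single targets described next passed in edgeR. Ehhadh, the peroxisomal bifunctional enzyme that also shortens dicarboxylic acids, read 120, 132, 142, 118 and 136 FPKM in NIKhKO 1 to 5, against 84.2, 168, 138, 175 and 129 FPKM in NIKflox 1 to 5. Vnn1, pantetheinase, read 45.5, 35.7, 46.1, 35.0 and 42.6 FPKM in NIKhKO 1 to 5, against 34.7, 55.7, 26.2, 58.2 and 25.0 FPKM in NIKflox 1 to 5. In both genes NIKflox 4 was highest and NIKflox 2 next, as in Cyp4a14, and the groups overlapped. Acot1, a cytosolic acyl-CoA thioesterase, averaged 5.00 ± 1.56 FPKM in NIKhKO and 10.6 ± 3.03 FPKM in NIKflox (log2 fold change −1.01, SE 0.23, edgeR adjusted p = 0.23). Fgf21, a hormone that the liver secretes, averaged 2.81 ± 0.355 FPKM in NIKhKO and 9.23 ± 7.39 FPKM in NIKflox, where NIKflox 4 and NIKflox 2 held 18.1 and 16.4 FPKM (adjusted p = 0.29). Pdk4 and Cpt1a had log2 fold changes of −0.26 and 0.22, with edgeR adjusted p-values of 0.86 and 0.61.

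The library with the highest Cyp4a14 was also the highest for many of these targets. NIKflox 4 held the highest value for 23 of the 48 tested (47.9%), beside 24.1% of all genes tested, and NIKflox 2 for 11 of the 48 (22.9%), beside 13.5% of all genes. NIKflox 5, lowest for 3 of the 4 Cyp4a genes, was lowest for 3 of the 48 targets (6.25%), beside 7.33% of all genes. The targets were lowest most often in NIKhKO 4, for 14 of 48, and in NIKflox 1, for 13 of 48, where no Cyp4a gene was lowest.

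**Figure D5:**
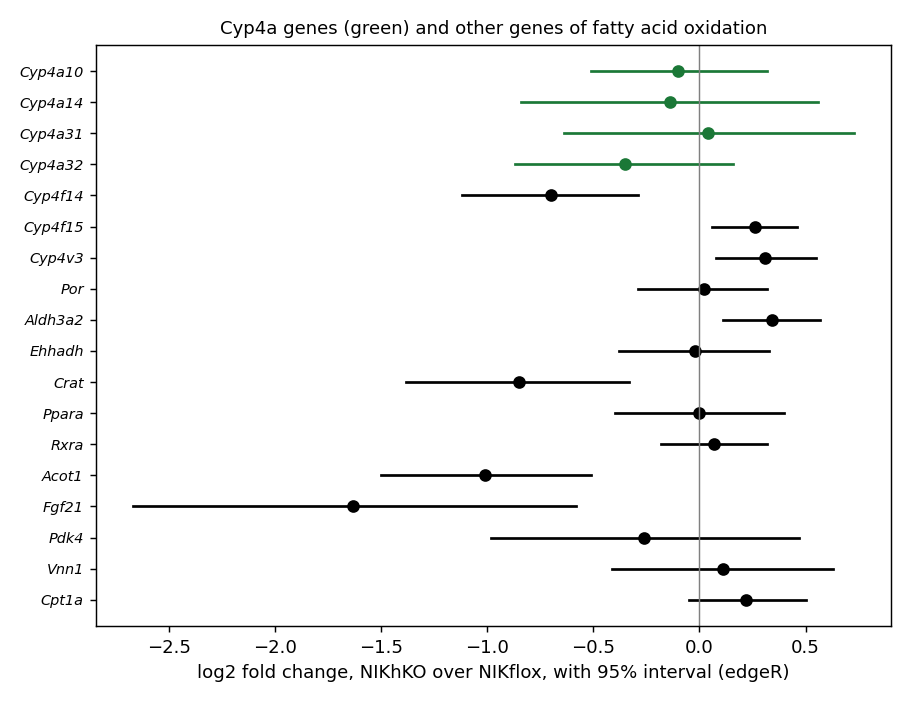
Log2 fold change (NIKhKO over NIKflox) with 95% interval from edgeR for the 4 detected Cyp4a genes (green) and for other genes of omega-oxidation and PPARalpha action (black). The intervals of all 4 Cyp4a genes cross 0, and none of the genes drawn passed at an adjusted p below 0.05.

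The remaining Cyp4 genes include other fatty acid and eicosanoid hydroxylases. Of 14 listed, 7 were tested and 4, among them the cluster's neighbour Cyp4x1, had a count of 0 throughout. In edgeR 0 passed, with 2 higher and 1 lower at an unadjusted p below 0.05 (4.85% and 5.14% of all genes). limma called 0, and DESeq2 called 1, Cyp4f14, lower (0.636% of all genes). Cyp4f14, known for hydroxylating leukotriene B4 and the vitamin E side chain, read 36.2, 31.0, 45.7, 47.9 and 31.8 FPKM in NIKhKO 1 to 5, against 87.5, 56.5, 57.9, 55.0 and 70.4 FPKM in NIKflox 1 to 5. Its ranges did not overlap, as was the case with NIKhKO lower for 1.59% of all genes tested, and its log2 fold change was −0.70 (SE 0.19, edgeR adjusted p = 0.26). The ranges of Cyp4f13 also lay apart, 8.44 to 9.72 FPKM in NIKhKO and 10.2 to 11.2 FPKM in NIKflox. Its log2 fold change was −0.16 (edgeR adjusted p = 0.59). Cyp4f15 averaged 73.8 ± 4.99 FPKM in NIKhKO and 64.6 ± 7.79 FPKM in NIKflox (log2 fold change 0.26, adjusted p = 0.37), and Cyp4v3, counterpart of a human fatty acid hydroxylase, 72.7 ± 7.19 FPKM in NIKhKO and 61.2 ± 5.10 FPKM in NIKflox (0.31, adjusted p = 0.35). Cyp4b1, which borders the cluster on the right, read 2.43 to 8.96 FPKM in NIKhKO and 3.87 to 6.21 FPKM in NIKflox.

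P450 enzymes take their electrons from Por, the NADPH-dependent reductase, and from cytochrome b5. Por read 58.6 ± 9.21 FPKM in NIKhKO and 60.7 ± 14.1 FPKM in NIKflox (SD, n = 5 each; log2 fold change 0.02, edgeR adjusted p = 0.98). Of the 4 electron donors listed 0 passed in edgeR, DESeq2 or limma. At an unadjusted p below 0.05 in edgeR 1 was higher, beside 4.85% of all genes. It was Cyb5r3, the cytochrome b5 reductase (log2 fold change 0.21, edgeR adjusted p = 0.49).

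Of 22 genes for the steps after the hydroxylase 21 were tested, and 0 passed in edgeR, with 5 higher and 1 lower at an unadjusted p below 0.05, or 23.8% and 4.76%, beside 4.85% and 5.14% of all genes. limma called 0 and DESeq2 called 1, Crat, lower, beside 0.636% of all genes. Their median log2 fold change was 0.19, with 14 positive and 7 negative. Aldh3a2, the fatty aldehyde dehydrogenase that turns the omega-aldehyde into the dicarboxylic acid, averaged 84.7 ± 10.4 FPKM in NIKhKO and 70.2 ± 7.77 FPKM in NIKflox (log2 fold change 0.34, SE 0.11, edgeR adjusted p = 0.31). Crat, carnitine acetyltransferase, averaged 6.92 ± 2.04 FPKM in NIKhKO and 13.0 ± 3.91 FPKM in NIKflox (−0.85, SE 0.24, adjusted p = 0.27).

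Because the Cyp4a12 genes are male-biased and Cyp4a10 and Cyp4a14 are reported higher in female mouse liver, sex-biased genes and hormone receptors were set beside them. Of 19 male-biased genes 15 were tested, and 0 passed in edgeR, with 0 higher and 4 lower at an unadjusted p below 0.05 (5.14% of all genes lower). DESeq2 called Gstp1 and Mup1 lower (0.636% of all genes) and limma called 0. In contrast to both Cyp4a12 genes, all 19 had counts in some library, a lower bar than the filter, which 15 of the 19 passed. Of 21 female-biased genes 20 were tested, and 0 passed in edgeR, with 6 higher and 5 lower at an unadjusted p below 0.05 (4.85% and 5.14% of all genes), while DESeq2 called 5 higher and 3 lower (0.990% and 0.636% of all genes) and limma called 0. Cyp2b13 had the smallest p of them (351 ± 60.2 FPKM in NIKhKO and 163 ± 34.1 FPKM in NIKflox, adjusted p = 0.056). Of 11 growth hormone, androgen and oestrogen signalling genes 10 were tested and 0 passed in edgeR, with 0 higher and 4 lower at an unadjusted p below 0.05 (5.14% of all genes lower). DESeq2 called Cux2 lower (0.636% of all genes) and limma called 0.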

How the data were processed

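RNA of 10 livers, selected with oligo(dT) per the labels' protocols, was sequenced. Per the file headers, the authors deposited FPKM for each gene and library, and beside it an estimated count, a whole number. Tools listed in the submitters' processing notes are StringTie 1.3.4d, HISAT2 2.0.4, cutadapt 1.9 and edgeR, with no role stated, and the build listed is the human hg38. The identifiers are mouse ones, and 93.8% of genes had the start and end of GENCODE M21, so coordinates are read as GRCm38. How many counts 1 read pair is worth is not stated, so the totals may not equal the depth.

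Genes with a mean of at least 0.5 FPKM (and Map3k14) were tested with edgeR 4.0.16 in R 4.3.3 on the counts (TMM, quasi-likelihood, two-sided, Benjamini-Hochberg over all 12731 genes). The fit was tried on counts simulated with the same dispersion for every gene. That trial does not gauge its power at the fold changes of the Cyp4a genes. Alternatives were DESeq2 1.42.0, limma 3.58.1 on log2(FPKM + 1) or log2(FPKM + 0.1), RLE factors, 2 other filters, counts divided by 4, robust shrinkage, a block for the replicate number, and leaving out libraries. Standard errors are the log2 fold change over the square root of F. Sequences were compared with Biopython 1.88.

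The members and gene lists were chosen with earlier results of these data known. All 6 members were named, and of each list the called genes or else the 3 with the smallest p, beside a few genes fixed by name, not all of which are reported here. Cyp4b1, Cyp4x1, Cyp4f13 and the sex-linked genes were added after the data were seen.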

Additional observations from a re-analysis of the deposited data

Results flagged for a closer look

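In the 34 genes checked, 68 groups of 5 libraries, 4 values stood so far from the rest of their group that the gap to the nearest library exceeded 0.710 of the group's range; chance alone gives such a value in about 1 group in 20, or 3.4 here. No Cyp4a value was among them. Socs2, a growth hormone target, read 0.924 FPKM in NIKhKO 3, and Pdk4, a PPARalpha target, read 9.27 FPKM in NIKflox 2. NIKflox 4, the library highest in Cyp4a10 and Cyp4a14, held the other 2, with Map3k14 at 0.899 FPKM and Ugt2b38 at 28.0 FPKM.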

How the results depend on the processing

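None of the 4 tested Cyp4a genes was called under any of the 20 alternatives run (edgeR, DESeq2 or limma, lowest adjusted p 0.47). The number of genes called among all tested was 3 with all libraries, 207 with DESeq2, 6 with robust shrinkage, 1 without NIKflox 2 and NIKflox 4, and 0 with limma at either pseudocount (1375 and 1365 at an unadjusted p below 0.05). When single libraries were left out it ran from 0 to 24, with 24 without NIKhKO 4, 3 without NIKflox 3 and 0 otherwise (979 to 1343 at an unadjusted p below 0.05). NIKflox 2 and NIKflox 4 ranked 1 to 3 of the 10 libraries for Cyp4a10, Cyp4a14 and Cyp4a32. Without them the log2 fold change turned to 0.12 for Cyp4a10, 0.41 for Cyp4a14 and 0.069 for Cyp4a32. When single libraries were left out it ran from −0.21 to 0.037 for Cyp4a10, from −0.30 to 0.16 for Cyp4a14, from −0.11 to 0.29 for Cyp4a31 and from −0.50 to −0.19 for Cyp4a32. The cause was not tested. With the replicate number as a block 2 genes were called, and Cyp4a14 had a log2 fold change of −0.09; deviations of same-numbered libraries correlated at −0.32 to 0.03 and no NIKhKO library correlated best with its own number, so the numbers are not taken as pairs. Cyp4a12a and Cyp4a12b, with no counts, gave no fold change under any alternative.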
